A study of Drosophila melanogaster with 6 samples.

Results

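The genes described here are the nuclear-encoded subunits of oxidative phosphorylation in adult fly heads. They are the genes outside the mitochondrial genome whose names begin with ND-, COX, ATPsyn, UQCR- or Sdh, which gave 74 of the 13541 genes listed. Of the 74, 60 are subunits of the 5 complexes, 13 carry the name of another such gene or subunit followed by L and are called paralogs below, and 1, Sdhaf3, is an assembly factor. RNA was compared between 3 samples of heads from miR-210 mutant flies, labelled M22-3 and carrying a mutation in the gene for this microRNA, and 3 samples from the w1118 control. w1118 is a laboratory strain that lacks the function of white, the gene for an eye pigment transporter. The sources used here do not state the nature of the M22-3 allele, its genetic background, the age and sex of the flies or the number of heads per sample. Whether samples came from separate cultures is not stated either, so the p-values reflect the scatter among these samples, and that scatter may be technical.

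Complexes I and II pass electrons from NADH and succinate to ubiquinone, complex III passes them on to cytochrome c, and complex IV passes them to oxygen. Complexes I, III and IV move protons across the inner mitochondrial membrane, and complex V, the ATP synthase, uses their return to make ATP. All complexes other than II combine subunits encoded in the nucleus with subunits encoded in the mitochondrial genome, and neurons and photoreceptors use much of the ATP made. In human cells, miR-210 is induced by low oxygen and lowers respiration, in part through the iron-sulfur scaffold ISCU.

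None of these genes passed the test between mutant and control heads. The authors' deposited table gave 0 of the 67 tested members an adjusted p under 0.05, where 4.46% of all 11155 tested genes were called, 2.56% higher and 1.89% lower in the mutant. Without adjustment, 0 of the 67 had a p under 0.05 in the authors' deposited table, against 12% of all tested genes. The lowest p-value of a member there was 0.182, adjusted 0.752, for ND-AGGG, an accessory subunit of complex I. The 7 members that were not tested are all paralogs with almost no reads. limma on single libraries recovered from the group means also called 0 members, of 49 tested, where it called 0.992% of all genes.

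The 58 subunits with both group means of at least 100 normalized counts lay in a narrow band around no difference. Their log2 fold changes, mutant over control, ran from -0.29 for ND-AGGG to 0.27 for ATPsynD in the authors' deposited table, with a median of 0.06. Of these values, 41 were above 0 and 17 below, and their SD was 0.10. All 58 also had both means of at least 1000, and 58 of 58 lay within 0.3 of 0 on the log2 scale. Of the 2876 tested genes at that level, 62.0% did so in the authors' deposited table, with a median of 0.06, an SD of 0.42 and 5.84% called. The bound of 0.3 was chosen after the values were seen. As a share of the summed means, the 74 members made up 2.40% in mutant heads and 2.57% in control heads, so that the share and the median fold change went opposite ways. In bulk heads, fewer cells of a type and less RNA per cell cannot be told apart.

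**Figure D1:**
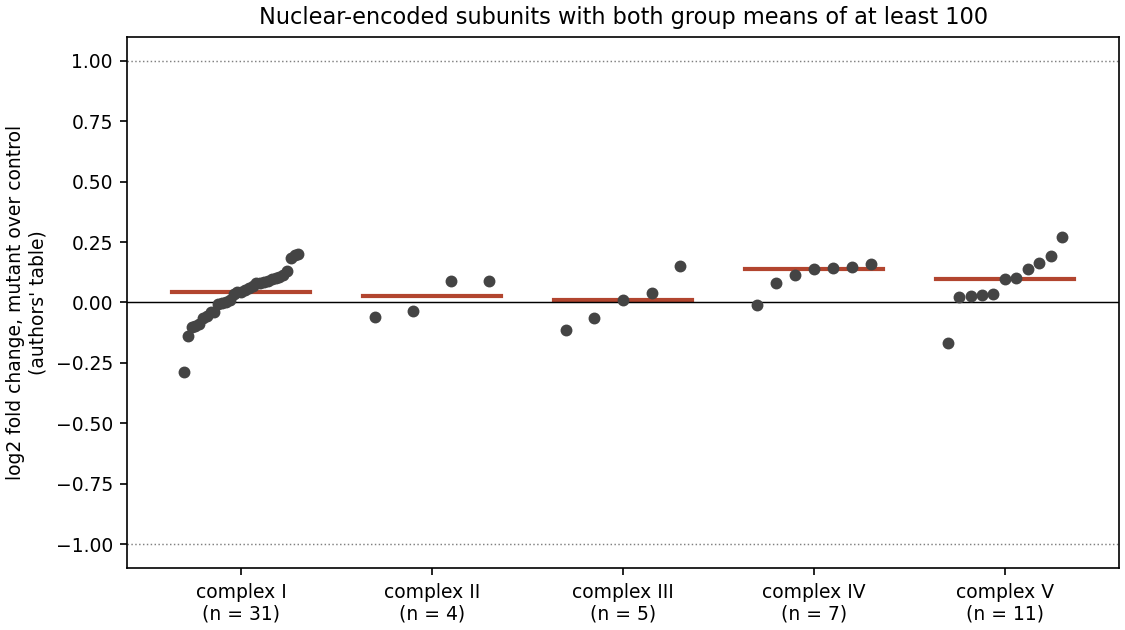
Each point is 1 of the 58 subunits with both group means of at least 100, placed by complex and, on the vertical axis, by its log2 fold change, mutant over control, in the authors' deposited table. Red bars mark the median of each complex and dotted lines mark 2-fold; every point lies between -0.29 and 0.27.

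The recovered libraries showed an ordering of these subunits within each genotype that the group means hide. Libraries carry no replicate number; in each group they are called deepest, middle and shallowest by the authors' size factor. In all 6 libraries 38 of the 58 subunits could be recovered, and their summed normalized counts were 157269, 216115 and 250661 in the deepest, middle and shallowest mutant libraries. In the control libraries the sums, in the same order, were 146762, 223650 and 237780. The deepest library was the lowest of its group for 38 of 38 subunits in the mutant and for 38 of 38 in the control. The shallowest was the highest for 36 in the mutant and 35 in the control.

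Relative to each gene's mean over the 6 libraries, the median of the 38 subunits was -0.37, 0.11 and 0.33 on the log2 scale in the deepest, middle and shallowest mutant libraries. In the control libraries it was -0.46, 0.16 and 0.25. The 8422 recovered genes with at least 20 normalized counts in every library had medians of 0.00 in each mutant library. In each control library their median was -0.01. Division by size factors brings the median over all genes near 0, so these medians follow from the normalization. The deepest library stood below the other libraries of its group by a median of -0.59 in mutant and -0.68 in control samples. The 72 mitochondrial ribosomal protein genes showed -0.55 in the mutant and -0.51 in the control, and 1084 recovered genes shorter than 1000 bases showed -0.48 and -0.49. The part of gene length or library depth in this order was not tested.

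**Figure D2:**
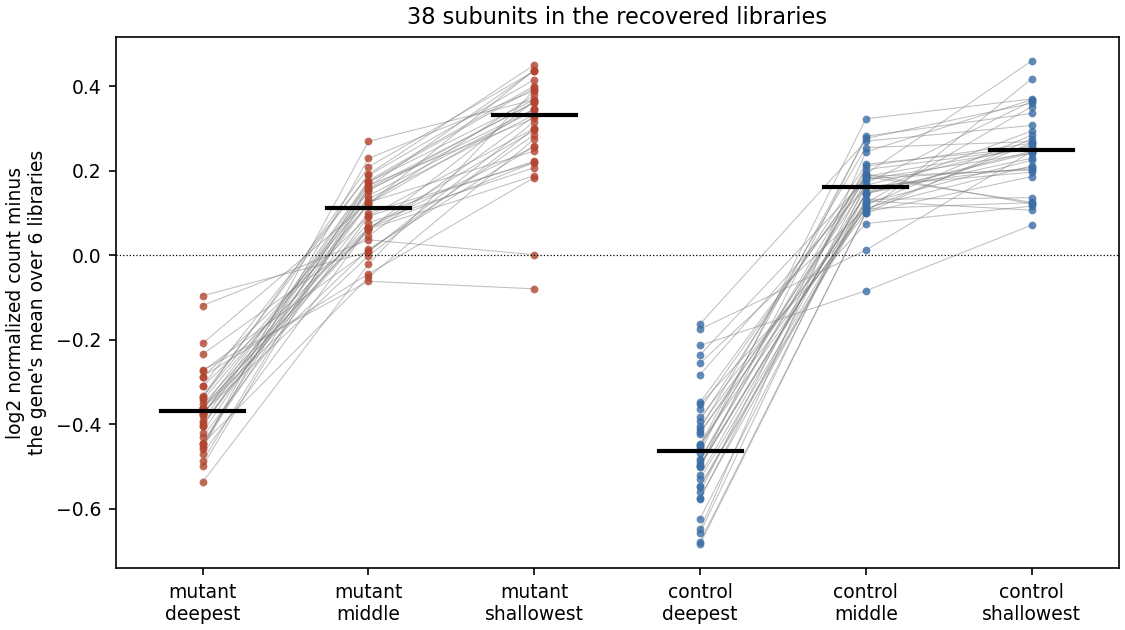
Each point is 1 of 38 subunits in 1 recovered library, as its log2 normalized count minus its mean over the 6 libraries; grey lines join a subunit within its group and black bars mark medians. The deepest library lies lowest in both groups, with medians of -0.37 (mutant) and -0.46 (control), and the span within each group exceeds the difference between the groups.

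Set side by side by depth rank within each group, the genotypes remained close. Equal ranks were not equal depths, since the deepest mutant library (size factor 0.973) was below the shallowest control library (1.00). Between the deepest mutant and the deepest control library, the 38 subunits had a median log2 difference of 0.08, mutant minus control, with 28 above 0. Over the other 4 libraries the median difference was 0.03, with 23 above 0. The direction rested on single libraries: the limma median over all recovered members was -0.16 without the deepest control library and -0.09 without the shallowest mutant library, against 0.23 without the deepest mutant library. Not one of the 47 members both recovered and tested had mutant and control libraries without overlap, against 18.3% of all such genes.

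Complex I is the largest of the complexes, and 33 of the 60 subunits belong to it. Of its 31 subunits with both means of at least 100, 0 were called, against 4.46% of all tested genes. Among tested genes with both means of at least 1000, 5.84% were called. At such shares few of 31 would be called in any case, so the 0 says little by itself. The 28 recovered in every library all stood lower in the deepest library of each group, so they are not separate results. Log2 fold changes of the 31 were above 0 for 20 and below for 11, with a median of 0.04, in the authors' deposited table. The 7 core subunits, which hold the flavin and the iron-sulfur clusters or lie beside the quinone site, ranged from -0.09 to 0.19 there with a median of 0.04. The 24 accessory subunits had a median log2 fold change of 0.05 in the authors' deposited table, with 15 above 0 and 9 below. Per kilobase of gene length, the median level of the 31 subunits was 5446 normalized counts in mutant heads and 5312 in control heads.

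ND-51, the core subunit that takes electrons from NADH, had authors' means of 15233 normalized counts in the mutant and 15657 in the control. The authors' deposited table gave ND-51 a log2 fold change of -0.04 (adjusted p = 0.987). ND-49, a core subunit at the quinone site, had 8201, 10336 and 11242 normalized counts in the deepest, middle and shallowest mutant libraries, against 7421, 9983 and 10272 in the control libraries. The groups overlapped, and the authors' deposited table gave ND-49 a log2 fold change of 0.11 (adjusted p = 0.958).

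ND-MLRQ had the highest level per kilobase among the ND- genes; its mammalian counterpart has been assigned to complex IV. It had 6812, 8837 and 10090 normalized counts in the mutant libraries, deepest first, and 6474, 9105 and 10149 in the control libraries. The groups covered almost the same range, with means of 8580 ± 1654 in the mutant, against 8576 ± 1894 in the control (SD, n = 3 each). ND-B12, an accessory subunit of the membrane arm, had 4686, 7538 and 8424 normalized counts in the mutant libraries, against 4023, 6896 and 8591 in the control libraries. The deepest library of each group was below both others, and the authors' deposited table gave a log2 fold change of 0.08 (adjusted p = 0.984).

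ND-AGGG lies on chromosome 3L (dm6, 24976254 to 24977118, plus strand) and had the lowest log2 fold change of the 58 subunits. It had 1829, 2116 and 2090 normalized counts in the mutant libraries, against 1973, 2663 and 2732 in the control libraries, deepest first. The middle and shallowest control libraries lay above every mutant library, while the deepest control library lay inside the mutant range. The means were 2012 ± 159 in the mutant and 2456 ± 420 in the control (SD, n = 3 each), and the log2 fold change was -0.29 in the authors' deposited table (adjusted p = 0.752).

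ND-SGDH, another accessory subunit of the membrane arm, stood at the other end of complex I. It lies on chromosome 3L (dm6, 12137496 to 12138584, minus strand) and had 4778, 6978 and 8165 normalized counts in the mutant libraries, against 4059, 6618 and 6636 in the control libraries. Each mutant library was above the control library of the same depth rank, but the groups overlapped. For ND-SGDH the authors' deposited table gave a log2 fold change of 0.20 (adjusted p = 0.933).

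A pair of complex I subunits, ND-MWFE and ND-B8, had almost no reads. ND-MWFE had 8.22, 4.84 and 5.95 normalized counts in the mutant libraries, against 11.03, 5.58 and 4.98 in the control libraries. ND-B8 had 1.03, 1.21 and 4.46 in the mutant libraries, against 4.65, 0.93 and 1.99 in the control libraries. In the Ensembl BDGP6 annotation, exons of other genes overlap 35.0% of the exonic bases of ND-MWFE and 15.4% of those of ND-B8. Larger overlaps were found for subunits with high levels, 40.5% for UQCR-6.4 and 35.6% for ATPsyndelta, and the part of overlap in the low values was not tested.

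Complex II, succinate dehydrogenase, also works in the tricarboxylic acid cycle and is built from nuclear-encoded subunits alone. Its 4 subunits had log2 fold changes from -0.06 to 0.09 in the authors' deposited table, with a median of 0.03, 2 above 0 and 2 below. SdhA, the flavoprotein, had authors' means of 12871 normalized counts in the mutant and 13193 in the control. SdhB, the iron-sulfur subunit, had 7419, 10257 and 11778 normalized counts in the mutant libraries, against 7006, 10036 and 10642 in the control libraries.

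The membrane anchors SdhC and SdhD gave both ends of the range within complex II. SdhC had 5139, 7606 and 8707 normalized counts in the mutant libraries, against 4613, 7323 and 8215 in the control libraries, with a log2 fold change of 0.09 in the authors' deposited table (adjusted p = 0.978). SdhD had 3803, 5122 and 5608 in the mutant libraries, against 3671, 5290 and 6197 in the control libraries, with a log2 fold change of -0.06 in the authors' deposited table (adjusted p = 0.985). For both, the spread between libraries of 1 genotype was several times the difference between genotypes. The assembly factor Sdhaf3 had 169 ± 10.9 normalized counts in the mutant and 167 ± 27.9 in the control (SD, n = 3 each).

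Complex III had 5 subunits in the set, with a median log2 fold change of 0.01 in the authors' deposited table, 3 above 0 and 2 below. The large matrix-facing proteins UQCR-C1 and UQCR-C2 were the highest in group mean. UQCR-C1 had authors' means of 25582 normalized counts in the mutant and 24904 in the control, and UQCR-C2 had 19503 in the mutant and 19369 in the control. UQCR-Q, a small subunit near the quinone sites, had the highest log2 fold change of the complex, 0.15 in the authors' deposited table, with authors' means of 12587 in the mutant, against 11325 in the control. UQCR-6.4 had the lowest, with 1996, 2852 and 3794 normalized counts in the mutant libraries, against 2072, 3306 and 3981 in the control libraries. Each control library of UQCR-6.4 was above the mutant library of the same depth rank, the groups overlapped, and the authors' deposited table gave a log2 fold change of -0.12 (adjusted p = 0.975).

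Complex IV, cytochrome c oxidase, had a median level per kilobase of 16314 normalized counts in mutant heads and 14834 in control heads, close to the 15832 in mutant heads and 15472 in control heads of complex V. Its 7 nuclear subunits in the set are among those that surround a catalytic core encoded in the mitochondrial genome. The log2 fold changes of the 7 ran from -0.01 to 0.16 in the authors' deposited table, with 6 above 0, 1 below and a median of 0.14. COX5A had authors' means of 20908 normalized counts in the mutant and 19321 in the control. COX4, a subunit at which ATP regulates the enzyme in mammals, had authors' means of 21544 in the mutant, against 19492 in the control. COX5B, on the matrix side, had the lowest fold change of the 7, with authors' means of 10329 in the mutant, against 10415 in the control.

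COX7A, a small membrane subunit, had 6904, 7416 and 9183 normalized counts in the mutant libraries, against 6363, 6960 and 7751 in the control libraries. Its mutant mean was 7834 ± 1196 and its control mean 7024 ± 696 (SD, n = 3 each), with a log2 fold change of 0.16 in the authors' deposited table (adjusted p = 0.916). COX8, the other complex IV subunit of the set recovered in every library, had 6760, 9553 and 11404 in the mutant libraries, against 6209, 9704 and 10286 in the control libraries. For both genes the groups overlapped.

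Complex V had 11 subunits in the set, 10 of them with a log2 fold change above 0 and 1 below, with a median of 0.10, in the authors' deposited table. The catalytic subunit ATPsynbeta had the highest group mean of all members, 56882 normalized counts in the mutant and 55768 in the control as the authors' means. ATPsynC, which forms the rotor ring, had authors' means of 50184 in the mutant, against 49148 in the control. Per kilobase, ATPsynF had 26130 normalized counts in the mutant and 24429 in the control, and ATPsynC had 25345 in the mutant and 24822 in the control, so that ATPsynF was the higher of the pair in the mutant and ATPsynC in the control.

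The stalk subunits ATPsynD and ATPsynCF6 gave both ends of the complex V range. ATPsynD lies on chromosome 3R (dm6, 19095000 to 19096271, plus strand), and its authors' means were 11119 in mutant heads and 9209 in control heads. Its 3 control libraries, deepest first, had 6344, 10129 and 11155 normalized counts, so that the highest reached the mutant mean; its mutant libraries were not recovered. The log2 fold change of ATPsynD was 0.27 in the authors' deposited table (adjusted p = 0.911). ATPsynCF6 had 5634, 7400 and 9282 normalized counts in the mutant libraries, against 5549, 9597 and 9914 in the control libraries, with overlapping groups. Its log2 fold change was -0.17 in the authors' deposited table (adjusted p = 0.949).

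**Figure D3:**
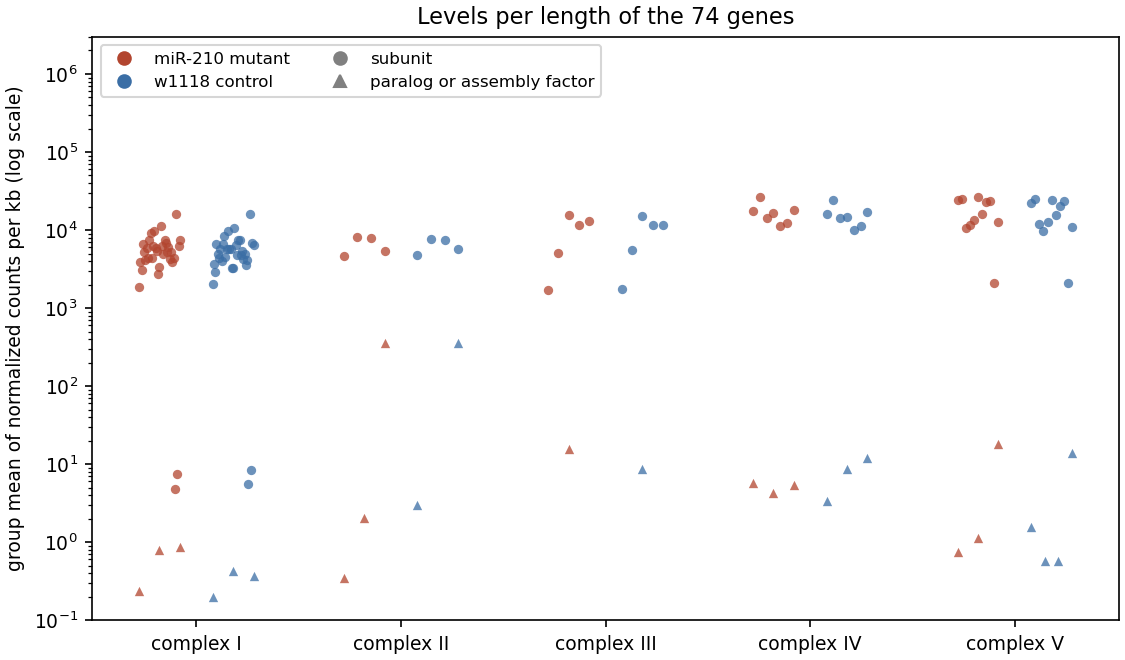
Each symbol is the group mean of 1 of the 74 genes as normalized counts per kilobase on a log axis, by complex, with mutant on the left and control on the right; circles are subunits and triangles are paralogs or the assembly factor. ATPsynCF6L in the mutant and SdhAL in the control are at 0 and not drawn, and paralogs lie far below the subunits in both groups.

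How large a difference the 6 libraries leave room for was read from the 95% intervals of limma on the 38 recovered subunits. With genotype as the only term, the half-width had a median of 0.65 on the log2 scale, from 0.40 to 0.82, and the bounds ran from -0.89 to 0.95. All 38 intervals lay inside a 2-fold change in either direction, and 5 lay inside 1.5-fold. With a term for the deepest libraries, the median half-width was 0.23 and the bounds ran from -0.50 to 0.45, so that 38 lay inside 1.5-fold. That term follows size factor rank within each group, not a labelled batch or replicate. The deepest library was also the lowest of its group for all 38 subunits. The narrower intervals therefore hold only if this scatter between libraries is taken as a known factor.

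In the fit with that term, 16% of all genes were called but 0 members were. ND-AGGG alone among the members had an unadjusted p under 0.05, with a log2 fold change of -0.28, an interval from -0.50 to -0.05 and a limma adjusted p of 0.091. Leaving out the deepest library of each group, limma called 7.58% of all genes and 0 members, and the lowest adjusted p of a member was 0.119, for ND-AGGG.

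**Figure D4:**
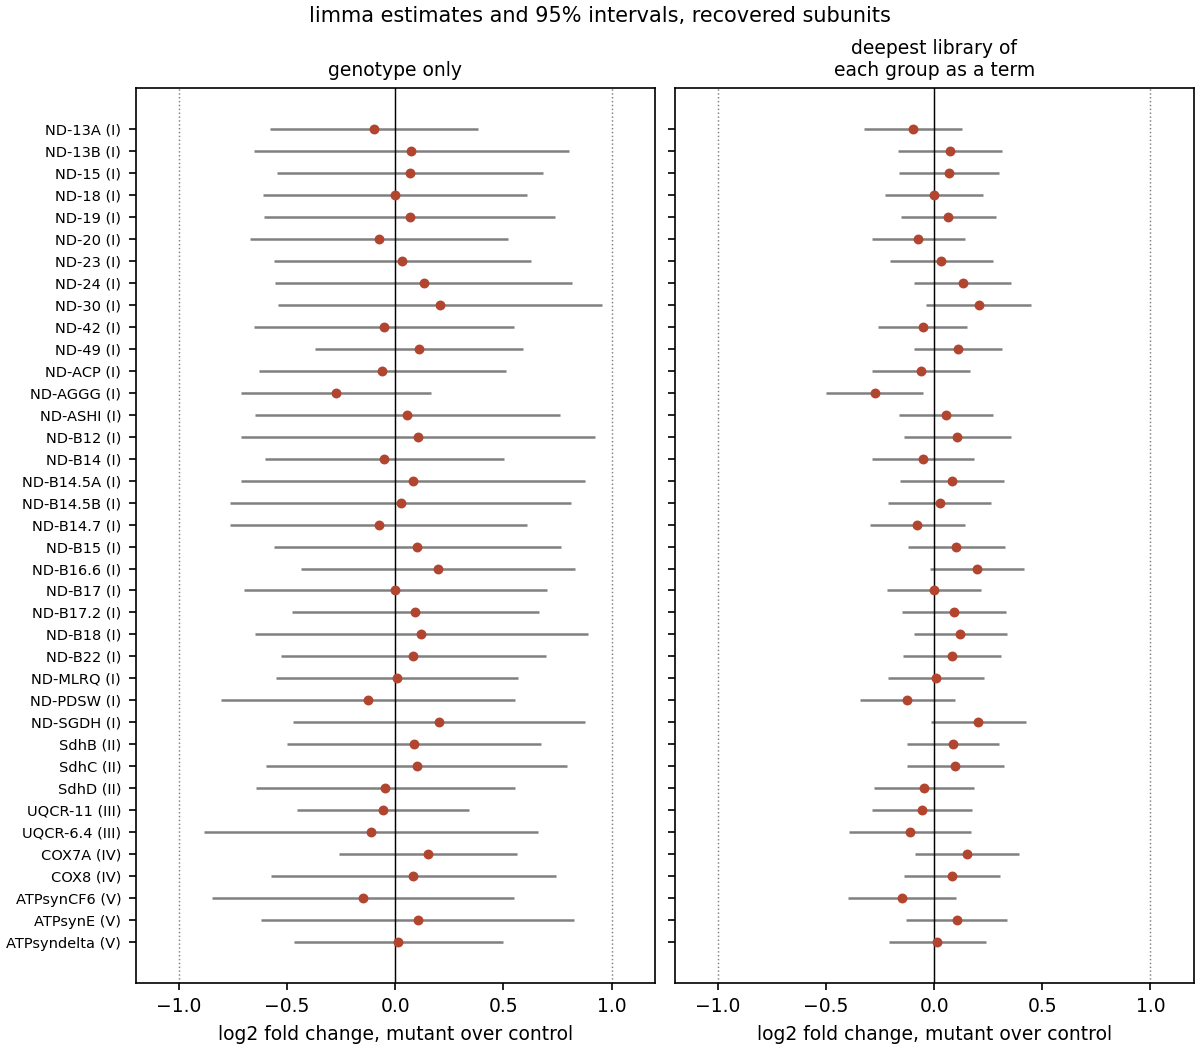
Points are limma log2 fold changes, mutant over control, of 38 recovered subunits listed by complex, and lines are 95% intervals, from genotype alone in the left panel and with a term for the deepest libraries in the right panel. Dotted lines mark 2-fold; all intervals lie inside them in both panels, and the median half-width is 0.65 on the left and 0.23 on the right. The term in the right panel follows size factor rank within each group, not a label.

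The 13 paralogs were close to absent in heads of both genotypes. Together they had 95 reads over the 3 mutant libraries and 145 over the 3 control libraries. The control libraries were deeper, with size factors of 1.00 to 1.72, against 0.672 to 0.973 in the mutant. A paralog had at most 21 reads in any library, and 12 of the 13 were at 0 in some library. ATPsynepsilonL had 5.14, 8.47 and 13.4 normalized counts in the mutant libraries, against 4.06, 7.44 and 8.97 in the control libraries. COX7AL had 7.19, 2.42 and 0 in the mutant libraries, against 6.97, 7.44 and 6.97 in the control libraries. The deepest mutant library of COX7AL overlapped the control range, and the authors' deposited table gave a log2 fold change of -1.07 (adjusted p = 0.852).

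Per kilobase, every paralog with a like-named partner lay far below that partner. COX4L had 5.70 normalized counts per kilobase in the mutant and 3.34 in the control, while COX4 had 17501 in the mutant and 15835 in the control. UQCR-11L had 15.7 per kilobase in the mutant and 8.68 in the control, beside 1689 in the mutant and 1764 in the control for UQCR-11. SdhBL had 2.01 in the mutant and 3.00 in the control, beside 8054 in the mutant and 7570 in the control for SdhB. Any reads shared between copies may have been split in the counting. The sources used here name featureCounts, but how such reads were handled is not given in them.

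Among 10 tested electron carriers and subunits that carry other names, 1 rose and 0 fell, where 4.46% of all tested genes were called. The 10 had a median log2 fold change of 0.10 in the authors' deposited table. The one that rose, Cyt-c1L, is a like-named paralog of Cyt-c1, the cytochrome c1 of complex III. Cyt-c1L had 33.9, 29.0 and 28.3 normalized counts in the mutant libraries, against 3.48, 6.51 and 4.98 in the control libraries, so that the groups were well apart. Its log2 fold change was 2.65 in the authors' deposited table (adjusted p = 0.000104). The log2 fold change of Cyt-c1 itself was -0.19 in the authors' deposited table, and that of blw, the alpha subunit of complex V, was 0.21.

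Of 12 tested genes of iron-sulfur cluster and heme synthesis, 1 rose and 0 fell, where 4.46% of all tested genes were called. Pbgs, which joins precursors into porphobilinogen on the way to heme, had 414, 575 and 670 normalized counts in the mutant libraries, against 232, 256 and 295 in the control libraries. No mutant library of Pbgs overlapped a control library, and its log2 fold change was 1.08 in the authors' deposited table (adjusted p = 0.00267). IscU, the fly counterpart of the human scaffold and named here for that role, had authors' means of 4463 in the mutant, against 5040 in the control and was not called, with a log2 fold change of -0.18 in the authors' deposited table (adjusted p = 0.920).

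The tricarboxylic acid cycle list also holds cytosolic Mdh1 and pyruvate dehydrogenase genes, which are not part of the cycle itself. Its 18 tested genes had a median log2 fold change of 0.17 in the authors' deposited table. Of the 18, 1 rose and 0 fell, where 4.46% of all tested genes were called. The one was Idh, an NADP-dependent isocitrate dehydrogenase that is not the NAD-dependent enzyme of the cycle, with authors' means of 19389 in the mutant, against 9845 in the control. Idh had a log2 fold change of 0.98 in the authors' deposited table (adjusted p = 0.00028). Idh3b, a subunit of the NAD-dependent enzyme, had the lowest value of the list, -0.38 in the authors' deposited table (adjusted p = 0.415).

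Over all 11155 tested genes, the authors' deposited table called 4.46%. No gene was called among 10 assembly and quality factors, 9 genes of adenine nucleotide and ion exchange or 72 mitochondrial ribosomal proteins. Nor was any among 18 regulators or 4 antioxidants. The regulators include Pink1, park, sima, tgo and Hph beside genes of mitochondrial gene expression, and the antioxidants include catalase (Cat), which is peroxisomal. Without adjustment, the authors' deposited table had 1 gene with a p under 0.05 in each of these lists other than the ribosomal proteins, where it had 0. The highest fold changes among assembly factors, regulators and antioxidants with both means of at least 100 were those of Phb2, a prohibitin, at 0.51 (adjusted p = 0.0921), tam, the mitochondrial DNA polymerase, at 0.66 (adjusted p = 0.228), and the peroxiredoxin Prx3 at 0.57 (adjusted p = 0.163), on the log2 scale in the authors' deposited table. The 13 protein-coding genes of the mitochondrial genome, whose products join the subunits above, had 0 higher and 1 lower: mt:ATPase6, a complex V subunit, at -0.91 in the authors' deposited table (adjusted p = 0.0322).

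Most photoreceptor markers fell in mutant heads, and fewer markers of other cell types passed the test, where 4.46% of all tested genes were called. Of 6 photoreceptor markers 5 fell, with a median log2 fold change of -1.42 in the authors' deposited table, and their summed means were 419976 in the mutant and 1190835 in the control. Neuron markers had 0 of 4 called, but 4 of 4 were below 0, with a median of -0.75 in the authors' deposited table. The neuron marker elav had 1554, 384 and 228 normalized counts in the mutant libraries, deepest first, a wide spread within 1 group. The spread of nSyb was narrower, at 7027, 5376 and 4923. Muscle markers had 0 of 5 called and 4 below 0, with a median of -0.45 in the authors' deposited table. Of 3 glia markers, alrm fell at -0.79, repo had 0.08 and Gs2 had 0.11, with a median of 0.08 in the authors' deposited table. Of 4 fat body markers, Lsp2 rose at 5.23, while Yp1 had 0.91, apolpp 0.86 and Fbp1 -1.57, with a median of 0.88 in the authors' deposited table. Yp1 was just above the threshold there (adjusted p = 0.05001). No testis or ovary marker was called, of 2 and 1 tested. The 3 matched testis markers summed to 23.1 in the mutant and 23.0 in the control, and the 2 matched ovary markers to 3.97 in the mutant and 2.45 in the control. The part of these cell types in the members' values was not tested.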

How the data were processed

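RNA from heads of 3 miR-210 mutant and 3 w1118 control samples was sequenced on an Illumina platform, per the labels. The submitters' processing notes name build dm6 and the tools FastQC, HISAT2, featureCounts and DESeq, with no versions; strand handling is not given in the sources used here. Each group has 1 deposited signal column, the authors' mean of 3 libraries' read counts after division by their size factors. The log2 fold change, mutant over control, and the p-value and adjusted p-value are the authors' own, per the file headers. Recomputing the Benjamini-Hochberg adjustment for 11155 genes gave the deposited values to 3.8e-15, and 2386 genes listed at 1 were treated as not tested. Calls use an adjusted p under 0.05.

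Single libraries were recovered from the deposited means, since each mean is a sum of whole reads multiplied by the step of each library. Means up to 10000 were searched, and each of 13193 mutant and 13225 control means gave exactly 1 combination; 13169 genes (97.3%) and 54 members were recovered in all 6. The other 20 members had larger means, 18 of them in both groups and 2 in the mutant alone. Size factors were 0.973, 0.826 and 0.672 in the mutant and 1.72, 1.08 and 1.00 in the control. Recovered genes held 6370385 to 17105853 reads in a library. With R 4.3.3, limma 3.58.1 (trend, robust) was run on log2(normalized count + 1), which understates fold changes of low genes, on genes whose mean reached 1; it is an alternative to the authors' test. Recovery and limma were tested on simulated data.

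Levels per kilobase use the deposited gene length, which for ATPsynC is 1980 bases, against 1868 exonic bases in the Ensembl BDGP6 annotation. All 74 members have the deposited coordinates in the Ensembl BDGP6 annotation. Named members are any called, the 3 highest per kilobase and the highest and lowest fold change in each complex among those with means of at least 100, and paralogs with partners; other lists name the called genes and the extremes. Members and lists were chosen with earlier results of these data known. The lists were also trimmed of uncertain or unmatched names after values were seen, and no test rests on them. Fold changes of library groups by depth use ranks of the size factors, not the labels' replicate numbers.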

Additional observations from a re-analysis of the deposited data

How the results depend on the processing

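No member was called at an adjusted p threshold of 0.1 or 0.01 in the authors' deposited table. By limma none was called with a pseudocount of 0.5 or 5, a minimum mean of 10, no filter, equal library totals or any library left out. Those limma fits called few genes of any kind, from 23 of 11642 without the middle mutant library to 124 of 11596 with a pseudocount of 5. At shares that low, 0 members called says little about the members. All 72 alternatives of the counts of called members and of the complexes' medians kept the verdict of the reported value, under a wide rule. A median counted as kept if it moved by less than the SD between libraries of a genotype, even where its sign turned. The alternative that set fold changes against the median of all tested genes could not change the calls. Nor could the thresholds of 0.1 and 0.01, since the lowest adjusted p of a member in the authors' deposited table was 0.752. The sign of the median over recovered members did turn: it was -0.16 without the deepest control library and -0.09 without the shallowest mutant library, against 0.23 without the deepest mutant library. Leaving out 1 library in turn, the median log2 difference over recovered members ranged from -0.16 to 0.24 in complex I. The range was -0.15 to 0.14 in complex II and -0.16 to 0.09 in complex III. In complex IV it was 0.00 to 0.24 and in complex V -0.11 to 0.33. These medians include low paralogs. Subunits recovered were 2 of 5 in complex III, 2 of 7 in complex IV and 3 of 11 in complex V. Of the 37 named members, only those recovered gave recomputed values, some of them low paralogs. Of these 266 values, 26 had another sign, 0 were called and 5 moved by more than 1 SD. No paired analysis was possible because the recovered libraries and the deposited columns carry no replicate numbers. The number of libraries limits the precision, and members with means over 10000 could not be examined library by library.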
